A study of Mus musculus with 19 samples.

Results

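Immediate-early and stress genes were followed in sorted mouse Kupffer cells (KCs), the resident macrophages of the liver sinusoids. The list held 37 genes, which were named with earlier results of these data known. Each was read from the probeset that names that gene alone, taking the probeset with the highest mean where there were several. By this rule 36 of the 37 genes were measured, out of 19938 genes with such a probeset. Hspa1b was read only by a probeset that it shares with its near copy Hspa1a and was given no value, and Hspa1a, although it has a probeset of its own name, may have been read in part from Hspa1b.

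Expression was measured on 19 whole-transcript arrays, 1 per sample, as log2 values on the RMA scale, so that a difference of 1 is a change of 2-fold. Monocyte-derived KCs (mo-KCs) came from KC-DTR mice, in which a cassette inserted into the Clec4f gene gives KCs a human receptor for diphtheria toxin (DT) and YFP. After 50 ng DT had emptied the niche, they were sorted at day 30 (5 arrays) or day 15 (3 arrays). Embryonic KCs (em-KCs), the cells present before depletion, came from 3 kinds of mice: wild type (WT) mice (3 arrays), untreated KC-DTR mice (3 arrays), and littermates of the KC-DTR mice, which lack the receptor and were left untreated (1 array) or given DT and sorted at day 15 (2 arrays) or day 30 (2 arrays). The mice were on a C57Bl/6 background and 6 to 12 weeks old. The 8 em-KC arrays other than the WT arrays are called colony em-KCs here. All cells were released from perfused liver by collagenase and DNase digestion and sorted as F4/80+ Clec4F+ cells, and the tissue digestion was a shared step of every group. The methods give the digestion time as a range, and no digestion or sorting time was given per sample.

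The arrays fell into 2 sets that the labels do not give and that were known from an earlier look at these data. Day 30 mo-KC replicates 3 to 5 and the 3 WT em-KC arrays had mean levels of 3 Y-linked genes (Eif2s3y, Kdm5d and Uty) between 3.97 and 4.18, and the other 13 arrays, day 30 replicates 1 and 2 among them, lay between 7.33 and 7.83. Xist, whose RNA coats the inactive X chromosome, averaged 9.15 ± 0.28 (SD, n = 6) in the first set, called low-Y here, and 4.25 ± 0.13 (SD, n = 13) in the second, called high-Y. The labels state neither the sex of each mouse nor an array batch. The mean of 15 KC markers lay between 11.40 and 12.00 on every array, and that of 10 monocyte and neutrophil markers between 4.89 and 5.42. Single markers of the mo-KCs departed from this. Of the 15 KC markers 4 were lower than in em-KCs at day 30, over the arrays of both sets (Timd4 by -2.28, Clec4f by -1.26, Marco by -0.97 and Spic by -0.54). At day 15 2 were lower (Timd4 by -3.75 and Marco by -1.55). Of all genes 0.492% and 0.311% were lower at these days (limma). Clec4f was 12.29 in day 30 replicate 1 and between 10.66 and 11.24 in replicates 2 to 5, against 12.17 to 12.67 in em-KCs. The monocyte receptor gene Ccr2 was higher at day 15, at a mean of 8.48 against 5.58 in em-KCs (limma). It was the 1 marker called of the 10 monocyte and neutrophil markers, whose median difference was -0.10.

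Immediate-early genes are transcribed within minutes of a signal without any need for new protein. Serum response factor, which binds a sequence known as the CArG box, and CREB, which binds the cAMP response element, sit on many of their promoters before the signal arrives. The products are transcription factors (AP-1, EGR and NR4A proteins) together with inhibitors that shut the response off again, such as phosphatases of MAP kinases and proteins that destroy short-lived mRNAs. Heat shock chaperones are switched on by a separate factor, HSF1. Both groups are known to respond to the enzymatic digestion of a tissue as well as to signals in the living animal.

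The 250 bases before the transcription start (RefSeq, GRCm38.p6) were searched on both strands for 4 motifs in the 31 members that had an entry, and the shares are given beside those of all 27025 genes with an entry. The CRE, TGACGTCA, was found in 4 members (Maff, Dusp1, Btg2 and Ppp1r15a), or 12.9% of members and 1.77% of genes. The CArG box was found in 3 members (Egr2, Dusp5 and Zfp36), or 9.68% of members and 1.62% of genes. The heat shock element, GAANNTTC, was found in 3 members (Jun, Hspa1a and Hspa1b), or 9.68% of members and 7.73% of genes. The AP-1 site, TGANTCA, was found in 0 members and in 7.82% of genes. No pair of these motifs shared bases in a member. Egr1, Egr3, Ier2, Myc, Hspa8 and Hsp90aa1 had no entry. A match is a description of these letters and not a measured binding site.

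The 150 bases next to the start are shown for 4 members that were lower in WT em-KCs and for Hspa1a with Hspa1b, because 1 probeset reads both of these genes. Capitals mark the motif.
Egr2, CArG box, chr10:67537719-67537868, plus strand, 1 of 5 annotated starts: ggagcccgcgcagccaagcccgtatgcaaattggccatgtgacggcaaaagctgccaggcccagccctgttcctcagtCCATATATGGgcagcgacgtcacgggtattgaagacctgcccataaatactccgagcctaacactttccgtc
Zfp36, CArG box, chr7:28379229-28379378, minus strand: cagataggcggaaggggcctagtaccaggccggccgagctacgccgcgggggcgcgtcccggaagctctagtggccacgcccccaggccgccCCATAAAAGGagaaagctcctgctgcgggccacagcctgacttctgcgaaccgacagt
Ppp1r15a, CRE, chr7:45526269-45526418, minus strand: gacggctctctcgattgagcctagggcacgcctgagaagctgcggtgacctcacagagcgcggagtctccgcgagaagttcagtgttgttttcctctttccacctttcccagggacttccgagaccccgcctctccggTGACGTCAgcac
Dusp1, CRE, chr17:26508473-26508622, minus strand: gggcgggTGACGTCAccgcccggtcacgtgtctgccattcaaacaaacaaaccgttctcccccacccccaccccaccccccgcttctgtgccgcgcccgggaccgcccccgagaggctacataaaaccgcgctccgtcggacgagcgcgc
Hspa1a, heat shock element, chr17:34972157-34972306, minus strand: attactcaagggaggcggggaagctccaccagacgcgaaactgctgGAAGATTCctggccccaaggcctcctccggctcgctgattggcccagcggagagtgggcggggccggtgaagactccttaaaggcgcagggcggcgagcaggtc
Hspa1b, heat shock element, chr17:34959239-34959388, minus strand: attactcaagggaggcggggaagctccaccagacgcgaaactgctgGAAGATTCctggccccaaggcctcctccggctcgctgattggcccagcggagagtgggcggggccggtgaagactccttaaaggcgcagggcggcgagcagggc
The Egr2 and Zfp36 boxes begin 72 and 58 bases before the start, the Dusp1 and Ppp1r15a elements 143 and 12 bases before it. The Hspa1a and Hspa1b windows were identical at 149 of 150 bases.

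The members split the arrays in the same way as the Y-linked genes did. The mean over the 36 members was 8.14, 8.04 and 7.80 in day 30 mo-KC replicates 3 to 5, 9.27 and 9.03 in day 30 replicates 1 and 2, and 9.06, 9.31 and 9.26 in day 15 mo-KCs. In em-KCs it was 7.91, 7.99 and 8.04 in the WT arrays, and between 8.64 and 9.24 in the 8 colony arrays. The 6 arrays of the first set thus lay at or below 8.14 and the other 13 at or above 8.64, so that the sets did not overlap, while mo-KCs and em-KCs occurred at both levels.

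**Figure D1:**
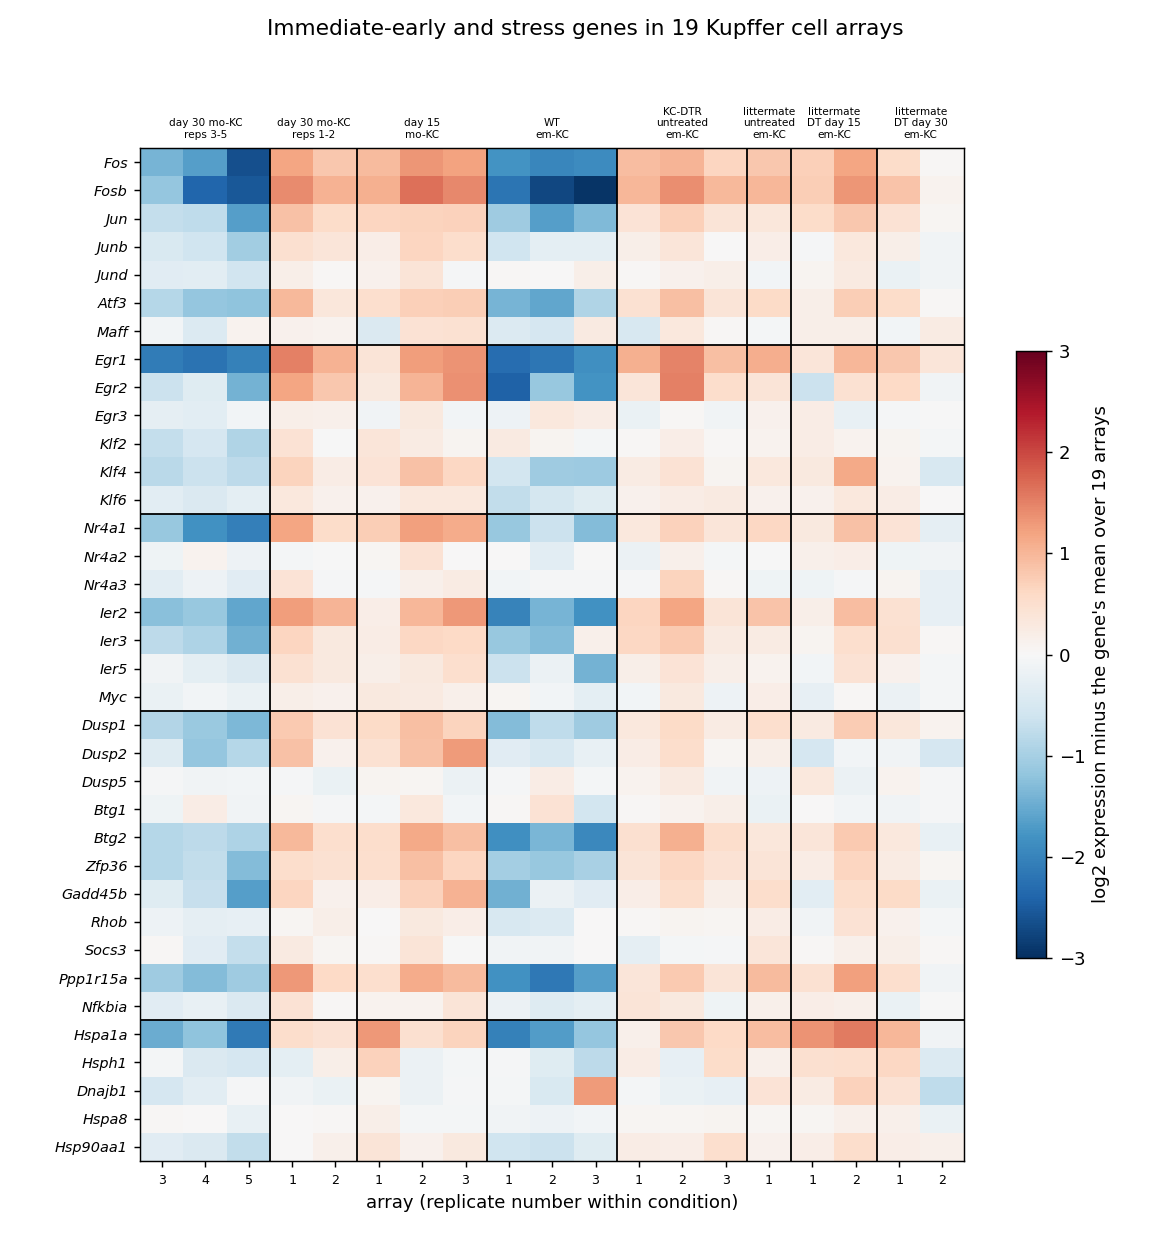
Heat map of the 36 measured members (rows, grouped by role) on the 19 arrays (columns, by condition and replicate number), coloured by log2 expression minus the gene's own mean over the arrays. Day 30 mo-KC replicates 3 to 5 and the 3 WT em-KC arrays are blue for most members, and 17 members were lower on all 6 of them than on any of the other 13 arrays.

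Fosb, Egr1, Fos, Hspa1a, Ier2, Ppp1r15a, Nr4a1, Btg2, Jun, Atf3, Dusp1, Zfp36, Klf4, Junb, Hsp90aa1, Ier5 and Klf6 were lower on each of the 6 arrays than on each of the other 13. These are 17 of 36 members, against 2.48% of all genes, and 0 members lay above on all 6, against 0.572% of genes. All 36 members had a lower mean in the 6 arrays, with a median difference of -0.78 against 0.03 over all genes. Of the 20 genes that fell furthest in the 6 arrays among all 19938, 10 were members, and of the 50 furthest 16 were. These are descriptions without a test, since the sets were formed from the data. The differences were not shared evenly: Fosb, Egr1 and Fos differed by -3.41, -3.08 and -2.76, whereas Dusp5, Dnajb1 and Btg1 each differed by -0.02, Egr3 by -0.08, Nr4a2 by -0.12 and Hspa8 by -0.13.

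**Figure D2:**
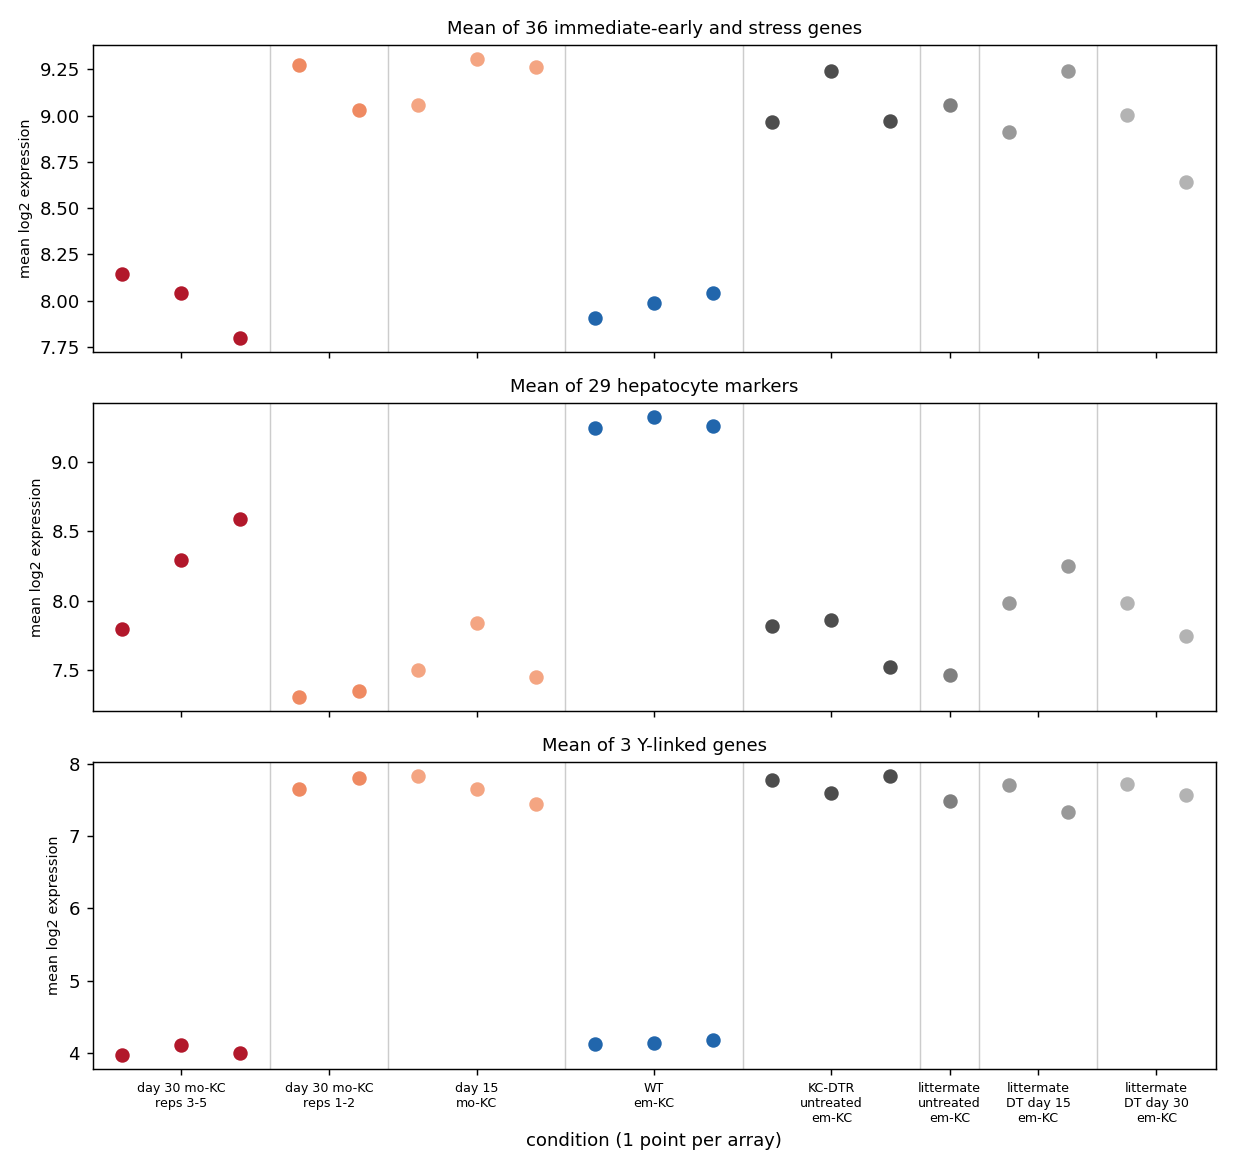
Mean log2 expression per array (1 point each) of the 36 members, of 29 hepatocyte markers and of 3 Y-linked genes, with conditions along the horizontal axis. The members reach at most 8.14 on the 6 low-Y arrays and at least 8.64 on the others; the hepatocyte mean is highest in WT em-KCs, at 9.27.

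Markers of other cell types also differed between these sets. Of 15 sinusoidal endothelial markers 14 had a lower mean in the 6 low-Y arrays, with a median difference of -0.40. Of 12 stellate cell and cholangiocyte markers 2 had a lower mean, with a median of 0.28. A lower mean was found for 8876 of all 19938 genes. The mean of 29 hepatocyte markers ranged from 7.80 to 9.32 in the 6 arrays and from 7.31 to 8.25 in the other 13, and 28 of the 29 had a higher mean in the 6. By condition it averaged 8.22 ± 0.40 (SD, n = 3) in day 30 replicates 3 to 5, 7.33 ± 0.03 (SD, n = 2) in the other 2 day 30 arrays, 7.60 ± 0.21 (SD, n = 3) at day 15, 9.27 ± 0.04 (SD, n = 3) in WT em-KCs and 7.83 ± 0.26 (SD, n = 8) in colony em-KCs. The member mean was 7.99 ± 0.18 in day 30 replicates 3 to 5 and 7.98 ± 0.07 in WT em-KCs (SD, n = 3 each). In a bulk array, fewer cells of a type and less RNA per cell cannot be told apart. The parts of RNA from hepatocytes or other cell types, sex, array batch, digestion and sorting in the members' levels were not tested.

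Among em-KCs, WT arrays were compared with colony arrays, a comparison of 2 groups of the same cell type. Of the 36 members 18 were lower in WT em-KCs and 0 were higher (limma, adjusted p under 0.05 over all genes), where 10.1% of all genes were lower and 7.77% higher. The median difference was -0.76 over the members and 0.04 over all genes. The WT and colony arrays did not overlap for 18 members, each lower in WT, against 9.28% of genes. WT em-KCs differ from colony em-KCs in the array set, and from all but the untreated littermate array also in genotype or DT. The labels do not say where the WT mice came from. Mouse source, genotype, DT, sex, any batch and any difference in digestion or sorting thus cannot be told apart here. With array set as a block, a fit in which this comparison rests on the split of the day 30 arrays, 0 of the 18 calls remained, 11 kept their direction and 7 turned (Fos to 0.29 and Egr1 to 0.40), and this holds for each WT minus colony value below.

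**Figure D3:**
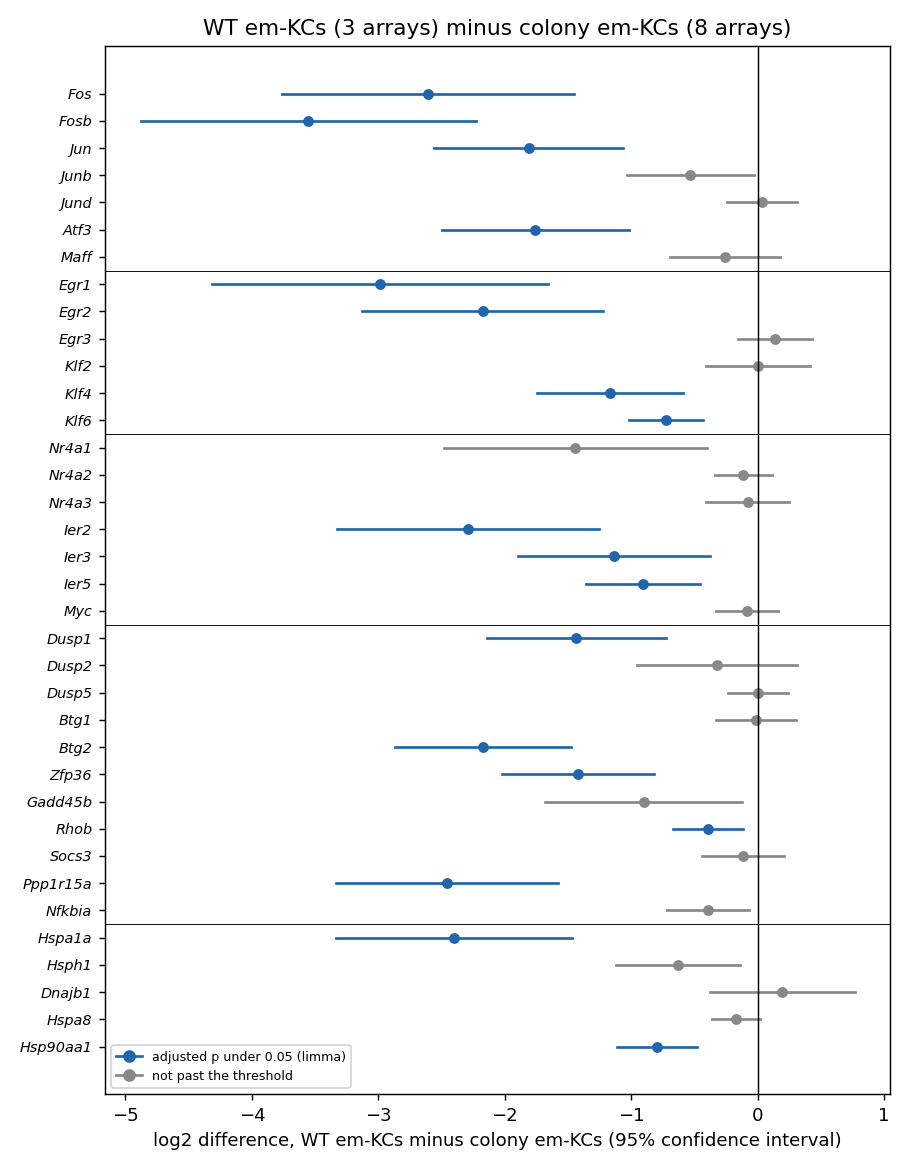
Log2 difference, WT em-KCs (3 arrays) minus colony em-KCs (8 arrays), with its 95% confidence interval for each of the 36 members, grouped by role. Blue marks the 18 members past the threshold, all to the left of 0, from Rhob at -0.39 to Fosb at -3.55.

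AP-1 is a dimer of FOS and JUN family proteins, and 4 of its 7 listed genes were lower in WT em-KCs (Fosb, Fos, Jun and Atf3). Fosb was 8.07, 6.84 and 6.67 in day 30 mo-KC replicates 3 to 5, 10.65 and 10.26 in replicates 1 and 2, and 10.28, 10.87 and 10.67 in day 15 mo-KCs. In em-KCs it was 7.02, 6.48 and 6.28 in the WT arrays, against a lowest, median and highest value of 9.34, 10.21 and 10.61 in the colony arrays. The WT arrays and day 30 replicates 3 to 5 were low, without overlap with any other array. WT em-KCs were 11.7-fold lower than colony em-KCs (log2 difference -3.55, SE 0.63, adjusted p = 0.00111, limma), the largest difference of any member.

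Fos showed the same 2 levels. It was 8.14, 7.90 and 6.92 in day 30 replicates 3 to 5, 10.73 and 10.37 in replicates 1 and 2, and 10.50, 10.86 and 10.75 in day 15 mo-KCs. The WT em-KC arrays had 7.77, 7.59 and 7.66, against 9.59, 10.31 and 10.73 as the lowest, median and highest of the colony arrays. Every WT array lay far below every colony array, and the difference was -2.61 (SE 0.55, adjusted p = 0.00355, limma). Jun, the partner of FOS in AP-1, was 9.88, 9.84 and 8.94 in day 30 replicates 3 to 5, 11.47 and 11.15 in replicates 1 and 2, and 11.23, 11.27 and 11.29 in day 15 mo-KCs. It was 9.52, 8.95 and 9.27 in WT em-KCs, against 10.65, 11.01 and 11.40 in colony em-KCs (lowest, median, highest). Its groups were again apart, by -1.81 (SE 0.36, adjusted p = 0.00222, limma).

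Atf3, a stress-induced relative that binds similar sites, was lower by -1.76 (SE 0.35, adjusted p = 0.00257, limma). Junb was lower on every WT array than on every colony array, yet its difference of -0.53 did not pass (adjusted p = 0.13, limma). Jund, a further subunit of the JUN family, had a difference of 0.04 with a 95% interval from -0.24 to 0.31, and the small MAF protein gene Maff had -0.26 with an interval from -0.69 to 0.18.

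**Figure D4:**
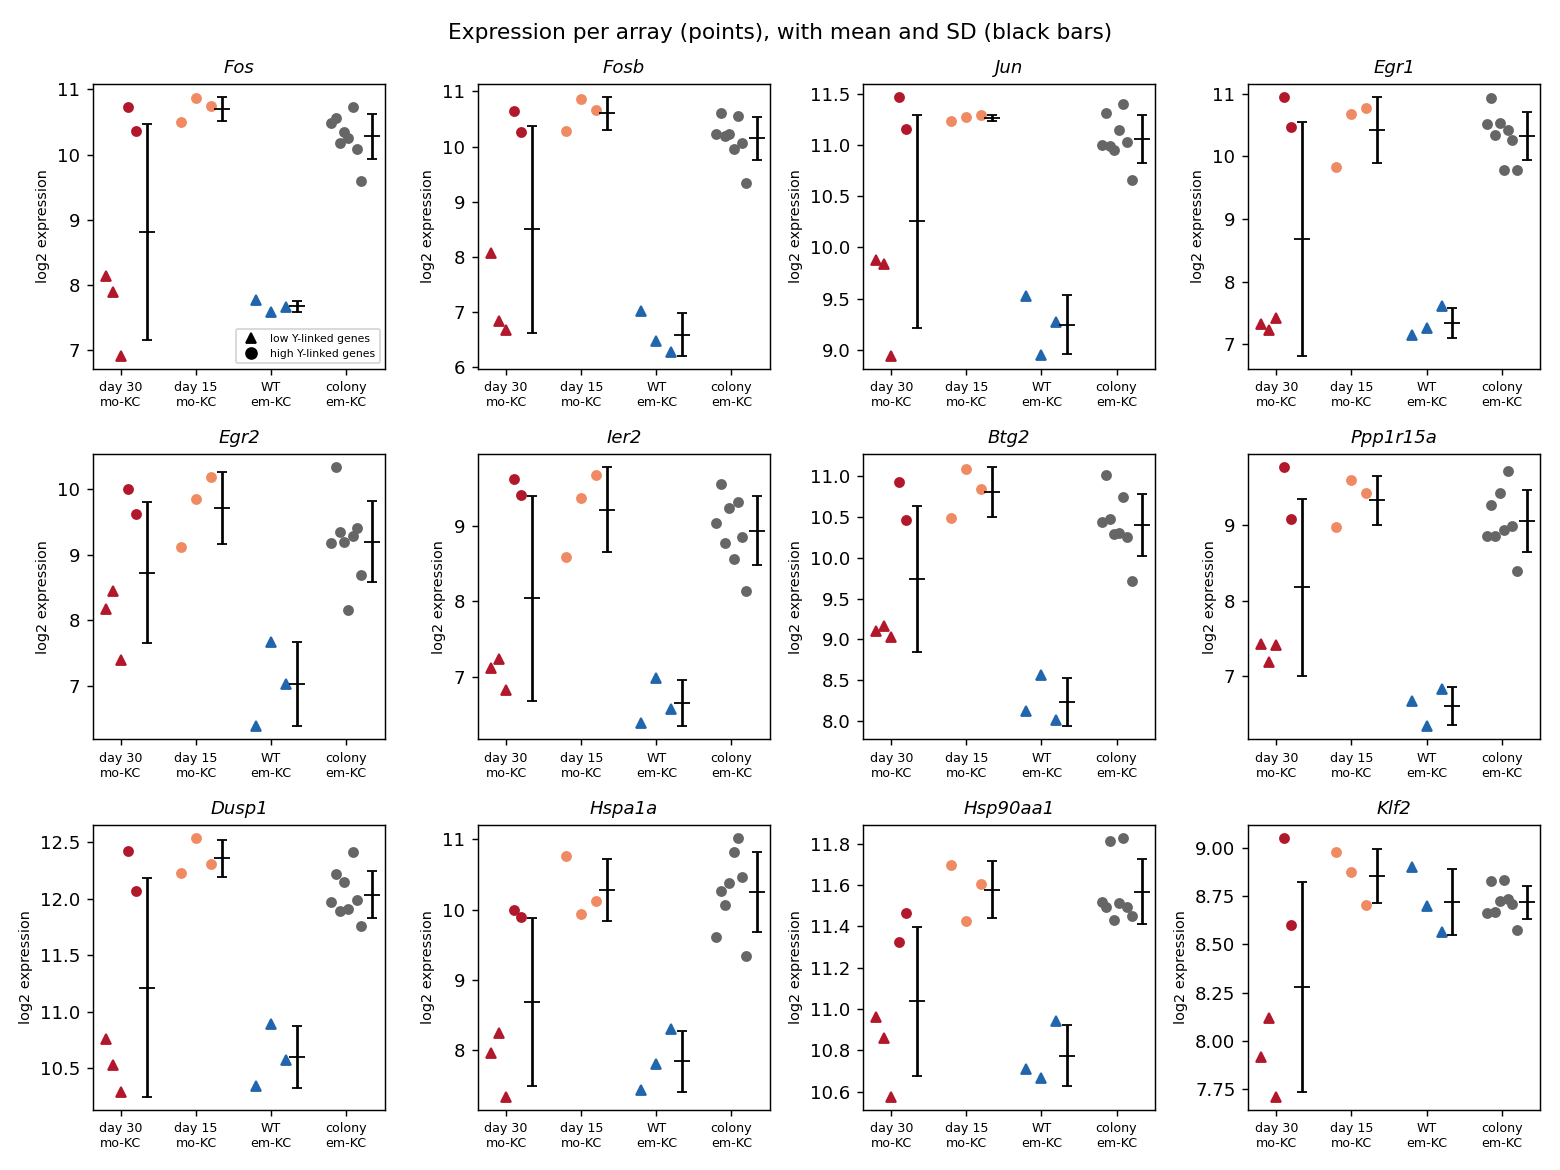
Log2 expression on each array (points) of 12 members in day 30 mo-KCs, day 15 mo-KCs, WT em-KCs and colony em-KCs, with mean and SD in black; triangles are the 6 low-Y arrays. For Fos the triangles lie between 6.92 and 8.14 and the circles between 9.59 and 10.86, while Klf2 is low only in the day 30 triangles, at 7.71 to 8.12.

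EGR and KLF proteins bind GC-rich sites through zinc fingers, and 4 of the 6 listed were lower in WT em-KCs (Egr1, Egr2, Klf4 and Klf6). Egr1 was 7.33, 7.23 and 7.41 in day 30 replicates 3 to 5, 10.95 and 10.47 in replicates 1 and 2, and 9.82, 10.68 and 10.77 in day 15 mo-KCs. It was 7.14, 7.25 and 7.60 in WT em-KCs, against 9.79, 10.38 and 10.93 in colony em-KCs (lowest, median, highest). The 6 low-Y arrays, mo-KC and em-KC alike, lay close together and far below the rest. The WT minus colony difference was -2.99 (SE 0.63, adjusted p = 0.00366, limma).

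Egr2, whose CArG box is shown above, was more graded. Its values were 8.18, 8.44 and 7.39 in day 30 replicates 3 to 5, 10.00 and 9.63 in replicates 1 and 2, and 9.11, 9.84 and 10.18 in day 15 mo-KCs. WT em-KCs had 6.38, 7.67 and 7.03, against 8.16, 9.24 and 10.33 in colony em-KCs (lowest, median, highest). The lowest colony array, DT-treated littermate replicate 1 of day 15, lay below 2 of the day 30 arrays but above every WT array. The difference was -2.17 (SE 0.45, adjusted p = 0.00333, limma). Klf4, a factor of macrophage differentiation, was 6.86, 7.04 and 6.89 in day 30 replicates 3 to 5, 8.34 and 7.91 in replicates 1 and 2, and 8.10, 8.56 and 8.30 in day 15 mo-KCs. It was 7.14, 6.62 and 6.58 in WT em-KCs, against 7.21, 7.96 and 8.81 in colony em-KCs (lowest, median, highest). The highest WT array lay just under the lowest colony array, and the difference was -1.17 (SE 0.27, adjusted p = 0.00714, limma). Klf6 was lower by -0.72 (adjusted p = 0.00187, limma). Egr3 and Klf2 had differences of 0.14 and 0.00 and 95% intervals from -0.15 to 0.43 and from -0.41 to 0.42.

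The NR4A orphan receptors, the IER proteins and Myc formed a mixed group, with 3 of 7 lower in WT em-KCs (Ier2, Ier3 and Ier5). Ier2, a small nuclear protein, was 7.12, 7.24 and 6.82 in day 30 replicates 3 to 5, 9.63 and 9.42 in replicates 1 and 2, and 8.59, 9.38 and 9.68 in day 15 mo-KCs. It was 6.39, 6.98 and 6.58 in WT em-KCs, against 8.14, 8.94 and 9.56 in colony em-KCs (lowest, median, highest). The groups did not overlap and differed by -2.29 (SE 0.49, adjusted p = 0.00412, limma). Ier3, a regulator of cell survival, was 8.37, 8.24 and 7.71 in day 30 replicates 3 to 5, 9.80 and 9.46 in replicates 1 and 2, and 9.39, 9.78 and 9.75 in day 15 mo-KCs. It was 8.02, 7.86 and 9.31 in WT em-KCs, against 9.19, 9.52 and 9.94 in colony em-KCs (lowest, median, highest). WT replicate 3 lay among the colony arrays, and the difference of -1.14 (SE 0.36, adjusted p = 0.037, limma) did not pass without WT replicate 1 (-0.95, adjusted p = 0.146) or WT replicate 2 (-0.87, adjusted p = 0.176). Nor did it pass without untreated KC-DTR replicate 1 or 2, DT-treated littermate replicate 2 of day 15 or replicate 1 of day 30, with adjusted p between 0.053 and 0.0602 (limma).

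Ier5 was 7.64, 7.45 and 7.30 in day 30 replicates 3 to 5, 8.20 and 8.04 in replicates 1 and 2, and 7.92, 8.04 and 8.23 in day 15 mo-KCs. It was 7.09, 7.57 and 6.33 in WT em-KCs, against 7.67, 7.89 and 8.18 in colony em-KCs (lowest, median, highest). WT replicate 3 was the lowest array by far. The difference was -0.91 (SE 0.21, adjusted p = 0.00743, limma) and, without that array, -0.58 (adjusted p = 0.0718). Nr4a1, the nuclear receptor also known as Nur77, was lower on every WT array than on every colony array, and its difference of -1.44 just missed the threshold (SE 0.50, adjusted p = 0.0519, limma). Nr4a2, Nr4a3 and Myc had differences of -0.11, -0.08 and -0.09, with 95% intervals inside 1.5-fold in either direction.

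Of the genes listed as feedback inhibitors and stress regulators, 5 of 11 were lower in WT em-KCs (Ppp1r15a, Btg2, Dusp1, Zfp36 and Rhob). Ppp1r15a, which directs a phosphatase to the translation factor eIF2 alpha in the stress response and whose CRE is shown above, was 7.42, 7.18 and 7.41 in day 30 replicates 3 to 5, 9.78 and 9.09 in replicates 1 and 2, and 8.98, 9.61 and 9.43 in day 15 mo-KCs. It was 6.66, 6.33 and 6.82 in WT em-KCs, against 8.39, 8.96 and 9.72 in colony em-KCs (lowest, median, highest). Both low groups were apart from every other array, and the WT arrays were the lowest of all. WT em-KCs differed from colony em-KCs by -2.46 (SE 0.42, adjusted p = 0.000789, limma). Btg2, an antiproliferative gene, was 9.10, 9.17 and 9.03 in day 30 replicates 3 to 5, 10.93 and 10.46 in replicates 1 and 2, and 10.49, 11.09 and 10.85 in day 15 mo-KCs. It was 8.12, 8.57 and 8.01 in WT em-KCs, against 9.72, 10.37 and 11.02 in colony em-KCs (lowest, median, highest). Here too the WT arrays lay lowest, then day 30 replicates 3 to 5, then the rest. The difference was -2.17 (SE 0.33, adjusted p = 0.00032, limma).

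Dusp1, a phosphatase that inactivates MAP kinases and whose CRE is shown above, was 10.76, 10.53 and 10.28 in day 30 replicates 3 to 5, 12.43 and 12.07 in replicates 1 and 2, and 12.22, 12.54 and 12.30 in day 15 mo-KCs. It was 10.34, 10.89 and 10.57 in WT em-KCs, against 11.76, 11.98 and 12.42 in colony em-KCs (lowest, median, highest), with no overlap. The difference was -1.43 (SE 0.34, adjusted p = 0.00714, limma). Zfp36, which encodes the mRNA-destabilising protein tristetraprolin, was lower by -1.42 (SE 0.29, adjusted p = 0.00264, limma). Rhob, a small GTPase gene, was lower by -0.39 (SE 0.13, adjusted p = 0.0477, limma), a call that was lost when any of 13 arrays was left out, with the highest adjusted p without WT replicate 1 (-0.30, adjusted p = 0.202). These were all 3 day 15 arrays, day 30 replicates 1 and 3, WT replicates 1 and 2, all 3 untreated KC-DTR arrays, the untreated littermate, DT-treated littermate replicate 2 of day 15 and replicate 1 of day 30. The other 6 genes of this list did not pass: Gadd45b had -0.90 (adjusted p = 0.0994, limma) and Nfkbia, the inhibitor of NF-kB, -0.39 (adjusted p = 0.0841, limma), Dusp2 and Socs3 had -0.32 and -0.11, and Dusp5 and Btg1 had 0.00 and -0.02.

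Of the heat shock chaperones, 2 of the 5 measured were lower in WT em-KCs, and 1 of the other 3 (Hspa8) had an interval inside 1.5-fold. Hspa1a, an inducible chaperone, was 7.97, 8.24 and 7.34 in day 30 replicates 3 to 5, 10.00 and 9.90 in replicates 1 and 2, and 10.77, 9.94 and 10.13 in day 15 mo-KCs. It was 7.44, 7.80 and 8.30 in WT em-KCs, against 9.35, 10.33 and 11.03 in colony em-KCs (lowest, median, highest). The WT arrays and day 30 replicates 3 to 5 were mixed with each other and apart from the rest. The difference was -2.40 (SE 0.44, adjusted p = 0.00147, limma). Hsp90aa1, an inducible form of a chaperone of kinases and receptors, was 10.96, 10.86 and 10.58 in day 30 replicates 3 to 5, 11.32 and 11.46 in replicates 1 and 2, and 11.70, 11.43 and 11.61 in day 15 mo-KCs. It was 10.71, 10.67 and 10.94 in WT em-KCs, against 11.43, 11.50 and 11.83 in colony em-KCs (lowest, median, highest). Its groups did not overlap and differed by -0.79 (SE 0.15, adjusted p = 0.00187, limma). Hsph1, a co-chaperone, had a difference of -0.63 (adjusted p = 0.0701, limma). Hspa8, the constitutive relative of Hspa1a, had -0.17 with a 95% interval from -0.36 to 0.02, and Dnajb1 had 0.19 with an interval from -0.38 to 0.77.

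Genes of the same pathways outside the list were counted in the same comparison. Of 38 measured other immediate-early genes 10 were lower in WT em-KCs and 4 higher, with a median difference of -0.15. Of all genes 10.1% were lower and 7.77% higher in this comparison. The 4 with the largest difference were Gadd45g (-1.43, adjusted p = 0.00198, limma), the NF-kB regulator Nfkbiz (-1.34, adjusted p = 0.00626), the kinase gene Plk2 (-1.31, adjusted p = 0.000263) and the ubiquitin-editing gene Tnfaip3 (-1.10, adjusted p = 0.0106). The 4 that were higher were Bcl3, Fosl2, Errfi1 and Sgk1, by 0.70, 0.69, 0.57 and 0.33. Of 17 other heat shock genes 3 were lower (Dnajb4, Hspd1 and Dnaja1, by -0.69, -0.47 and -0.46) and 0 higher, and of 24 upstream kinases and factors 2 were lower and 2 higher. Across the sets of arrays, 3 of the 38, 0 of the 17 and 0 of the 24 were lower on each of the 6 low-Y arrays than on all others. The share over all genes was 2.48%. Beside these calls, 26 of the 29 hepatocyte markers were higher in WT em-KCs (Alb by 1.86, SE 0.35, adjusted p = 0.00173, limma), as were 4 of 12 stellate cell and cholangiocyte markers and 1 of 12 lymphocyte markers, and 1 of 15 sinusoidal endothelial markers was lower. Their part was not tested.

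Whether mo-KCs differ from the em-KCs they replace was asked first at day 30. Over all 19 arrays 0 of the 36 members passed, where 0.787% of genes did (0.296% higher and 0.492% lower), and 2 members had an unadjusted p under 0.05 (Klf2 and Jund). The methods' t-test also called 0, with 2 at an unadjusted p under 0.05. The median member difference was -0.23, and the 95% interval lay within 1.5-fold for 14 of 36 members, against 91.1% of genes, so that for most members this comparison did not narrow the difference. Fos differed by -0.76 with an interval from -2.03 to 0.51 and Egr1 by -0.83 with an interval from -2.28 to 0.63. The spread came from within the groups: Fos had an SD of 1.66 over the 5 day 30 arrays and 1.25 over the 11 em-KC arrays, against 0.18 over the 3 day 15 arrays.

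Within the day 30 mo-KCs, replicates 3 to 5 lay above replicates 1 and 2 without overlap for 0 members, a count not made over all genes. They lay below them without overlap for 30 of 36 members, against 20.7% of genes. This held for all 18 members that were lower in WT em-KCs and for 12 of the other 18. The median difference between the 2 parts of this group was -1.02 over the members. Labels place all 5 arrays in 1 group.

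The same comparison was made inside each set. Within the high-Y set, day 30 mo-KCs (2 arrays) minus colony em-KCs (8 arrays) had a median member difference of 0.15 and 0 members passed, where 0.326% of genes did. Fos differed by 0.27 (95% interval -0.18 to 0.71) and Egr1 by 0.39 (-0.18 to 0.97). Within the low-Y set, day 30 mo-KCs (3 arrays) minus WT em-KCs (3 arrays) had a median of 0.02, and 3 members passed where 4.15% of genes did. Btg2 and Ppp1r15a were higher in day 30 mo-KCs, by 0.87 and 0.74 (adjusted p = 0.0263 and 0.0392, limma), and Klf2 was lower, by -0.81 (SE 0.15, adjusted p = 0.0265, limma). Against colony em-KCs alone, Hsp90aa1 was lower in day 30 mo-KCs by -0.53 (adjusted p = 0.0404, limma), where 1.07% of genes passed. That fit was not made inside a set, since its day 30 arrays came from both sets and its em-KC arrays were all high-Y. Hsp90aa1 differed by -0.18 within the high-Y set (adjusted p = 0.869, limma). In day 30 replicates 3 to 5 minus WT em-KCs its mean differed by 0.03.

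**Figure D5:**
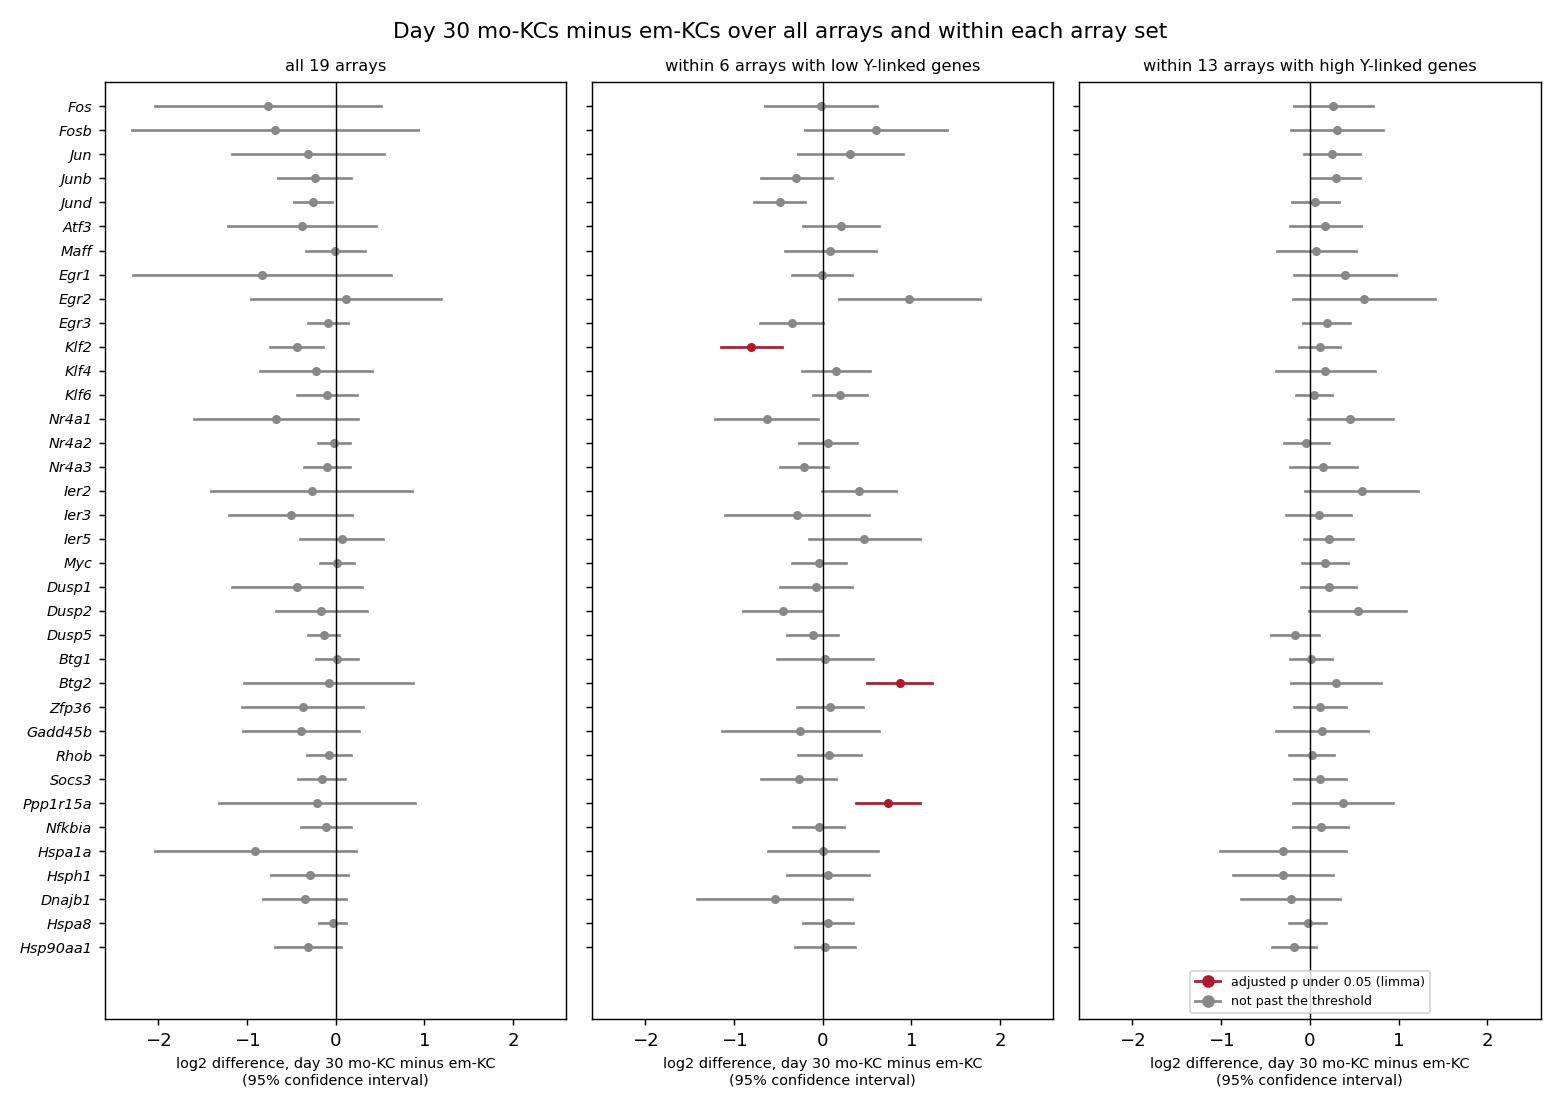
Log2 difference, day 30 mo-KCs minus em-KCs, with its 95% confidence interval for each member, over all 19 arrays (left), within the 6 low-Y arrays (middle) and within the 13 high-Y arrays (right). The wide intervals of Fos, Fosb and Egr1 on the left are narrower within each set, where the median member difference over all members is 0.02 (middle) and 0.15 (right), and red marks Klf2, Btg2 and Ppp1r15a.

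Klf2, a Krüppel-like factor that restrains inflammatory gene expression in myeloid cells, was the member that passed a test of whether the day 30 difference depended on the array set. It was 7.92, 8.12 and 7.71 in day 30 replicates 3 to 5, 9.05 and 8.60 in replicates 1 and 2, and 8.98, 8.88 and 8.70 in day 15 mo-KCs. It was 8.90, 8.70 and 8.56 in WT em-KCs, against 8.57, 8.72 and 8.84 in colony em-KCs (lowest, median, highest). Unlike Fos or Egr1, it was low in the 3 day 30 arrays alone, and both kinds of em-KC stood at 8.72. The day 30 difference in the low set minus that in the high set was -0.92 (SE 0.19, adjusted p = 0.013, limma). It was 1 member of 36 lower by this test, where 1.40% of genes were (2.31% higher, 3.71% in either direction), and the call did not pass without day 30 replicate 1 (-0.69, adjusted p = 0.137) or with the replicate number as a block (-0.78, adjusted p = 0.123). An unadjusted p under 0.05 was reached by 6 members, and Nr4a1 and Dusp2 had larger differences between the sets, -1.09 and -0.99, that did not pass (adjusted p = 0.11 and 0.111, limma). Jund was likewise low in these 3 day 30 arrays alone, at 7.97, 7.99 and 7.74, against 8.12 or more on every other array. Its difference between the sets, -0.55, did not pass (adjusted p = 0.0695, limma).

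At day 15 all 3 mo-KC arrays belonged to the high set, with member means of 9.06, 9.31 and 9.26, against 8.64 to 9.24 in colony em-KCs. Day 15 mo-KCs minus all em-KCs had a median member difference of 0.41, and 0 of 36 members passed, where 0.502% of genes did (0.191% higher and 0.311% lower). An unadjusted p under 0.05 was reached by 2 members (Dusp2 and Myc), and by 4 with the methods' t-test, which also called 0 after adjustment. Against em-KCs of the same set, the colony arrays, the median was 0.15, again with 0 members past the threshold, where 1.16% of genes were (0.687%, and 0 members, in a fit that also held the 3 low-Y day 30 arrays). Fos differed by 0.43 (95% interval 0.04 to 0.81) and Fosb by 0.46 (0.02 to 0.90) in that comparison. Dusp2, a MAP kinase phosphatase of immune cells, was 7.47, 7.91 and 8.30 in day 15 mo-KCs, against 6.52 to 7.55 in colony em-KCs, and its difference of 0.90 did not pass (SE 0.22, adjusted p = 0.0658, limma). Day 15 replicate 2 was the highest of the 13 arrays for 12 of the 36 members, a count that was not made over all genes.

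Day 30 was then set against day 15 mo-KCs. Over all 8 mo-KC arrays the median member difference was -0.64 and 0 members passed, where 0.0201% of genes did (0.0100% in each direction), although 13 had an unadjusted p under 0.05 (1 with the methods' t-test, which called 0). Nr4a1 had the values 7.38, 6.70 and 6.44 in day 30 replicates 3 to 5 and 9.69 and 9.05 in replicates 1 and 2, against 9.24, 9.73 and 9.61 at day 15. Its day 30 values thus fell into a low and a high part with no array between, and the difference of -1.68 did not pass (SE 0.60, adjusted p = 0.92, limma). Within the high set, where day 30 had 2 arrays, the median member difference was -0.05 and 0 members passed.

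Genotype and DT could not be told apart in the colony em-KCs, since 4 of the 5 littermate arrays were DT-treated and 3 of the 4 untreated arrays were KC-DTR. The 2 comparisons that follow are thus nearly the same split of 8 arrays, taken in opposite directions. Untreated KC-DTR em-KCs minus littermate em-KCs had a median member difference of 0.07, with 0 of 36 members and 0% of genes past the threshold and 0 members at an unadjusted p under 0.05 (2 with the methods' t-test, which called 0). Fos averaged 10.41 ± 0.20 (SD, n = 3) in KC-DTR em-KCs and 10.20 ± 0.41 (SD, n = 5) in littermates, a difference of 0.21 with a 95% interval from -1.04 to 1.45, so that a change of 2-fold was not excluded by this comparison. DT-treated littermate em-KCs minus untreated colony em-KCs had a median member difference of -0.08, with 0 of 36 members and 0% of genes past the threshold and 0 members at an unadjusted p under 0.05 (2 with the methods' t-test, which called 0). Fos differed by -0.23 (95% interval -1.44 to 0.98) and Hspa1a by 0.33 (-0.64 to 1.31).

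Single colony arrays nevertheless stood apart. DT-treated littermate replicate 2 of day 30 had the lowest member mean of the 13 arrays, 8.64, and was the lowest of them for 22 of 36 members, Fos, Fosb, Jun, Hspa1a and Hsph1 among them. Its hepatocyte mean of 7.75 and Y-linked mean of 7.56 lay inside the range of the other arrays of that set. The cause of its low member values was not tested. Untreated KC-DTR replicate 2, with a member mean of 9.24, was the lowest for 0 members and the highest for 3. Within the low set, day 30 replicate 5 was the lowest array for 16 of 36 members. These counts of lowest and highest arrays were not made over all genes, so whether such arrays stood apart beyond the members was not tested.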

How the data were processed

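Per the labels and the study's methods, RNA of sorted KCs was hybridised to Mouse Gene 1.0 ST arrays, 1 array per sample, and the authors deposited log2 values after RMA background correction, quantile normalization and probeset summary. Tool versions for these steps were not given in the sources used here. Of 35556 probesets, 21789 named 1 gene, 1621 several and 12146 none in the platform annotation. The probeset with the highest mean over the 19 arrays stood for its gene, which left 19938 genes. No pair of arrays held identical values.

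Groups were compared with limma 3.58.1 (R 4.3.3; lmFit and eBayes) at a Benjamini-Hochberg adjusted p under 0.05 over all genes. Day 30 and day 15 mo-KCs were set against the 11 em-KC arrays in a fit of 3 groups, comparisons among em-KCs came from a fit of the 7 labelled conditions, and the difference between array sets from a fit that splits day 30 mo-KCs by set. The fit of the 7 labelled conditions was tested on simulated data that held no split into array sets. The other fits were not tested in this way. Where nothing says that samples are separate animals, p-values measure only the spread between samples; the labels call them biological replicates. Precision is limited by how many arrays there were.

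The members, gene lists and tests were chosen with earlier results of these data known. Values per array are given for the 3 members with the largest difference among those called between WT and colony em-KCs in each of the 5 role lists (heat shock had 2). Klf2, Dusp2 and Nr4a1, and the KC and monocyte markers, were named after their values were seen. The 2 array sets were formed from Y-linked genes. Alternatives were another em-KC reference, probeset rule, low-value filter, normalization (cyclic loess), variance model, the methods' t-test, blocks for replicate number and array set, fits within each set, and leaving out each array. Promoter windows came from RefSeq (GRCm38.p6).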

Additional observations from a re-analysis of the deposited data

Results flagged for a closer look

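In groups of 4 to 10 arrays, 72 checks were made for an array that stands far from its nearest neighbour relative to the whole range of its group (Dixon's criterion at the 95% level), and chance alone flags about 1 in 20 such checks. Hspa8, the constitutive chaperone, was 12.28 in day 30 mo-KC replicate 5, with the nearest of the other 4 arrays at 12.51 and the highest at 12.54. Hspa8 was also low in DT-treated littermate replicate 2 of day 30, at 12.31, where the nearest of the other 7 colony em-KC arrays was at 12.54 and the highest at 12.66. These 2 arrays had the lowest member mean of their array sets, 7.80 and 8.64. Nr4a3, an orphan receptor, was 5.13 in untreated KC-DTR em-KC replicate 2, with the nearest of the other 7 colony arrays at 4.56 and the lowest at 4.22.

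Klf2 was picked out by a test of the difference between sets: the day 30 mo-KC minus em-KC difference was lower by -0.92 in the 6 low-Y arrays than in the 13 high-Y arrays (adjusted p = 0.013, limma; adjusted p = 0.137 without day 30 replicate 1 and 0.123 with the replicate number as a block), with all 3 day 30 arrays of the low set below every other array.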

How the results depend on the processing

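The 18 members lower in WT em-KCs than in colony em-KCs numbered 16 to 21 under 8 alternatives and 16 to 20 when each array was left out in turn. The exception was the fit with array set as a block, in which WT and colony em-KCs are set against each other through the split of day 30 mo-KCs: 1 member passed (Klf2, higher by 0.92), and Fos, Egr1, Klf4, Ier2, Ier3, Dusp1 and Zfp36 had differences of 0.29, 0.40, 0.0295, 0.17, 0.39, 0.29 and 0.0361, none past the threshold. For day 30 mo-KCs against em-KCs the count of 0 became 1 against colony em-KCs alone, 3 within the 6 low-Y arrays, and 0 to 1 when each array was left out (Klf2, by -0.63, without day 30 replicate 1). All genes called there numbered 157 in the fit of 3 groups, 65 within the 13 high-Y arrays, 827 within the other 6, 514 with array set as a block, 84 with the methods' t-test and 49 with the replicate block. The 1 member whose day 30 difference depended on the set was 0 with the replicate number as a block and 0 to 2 with each array left out (Nr4a1 was the second, without day 30 replicate 3). The labels do not say whether the replicate numbers pair the samples. Same-numbered arrays had correlations from -0.12 to 0.15 (median 0.0175), against -0.16 to 0.14 (median -0.0050) for other pairs. These were correlations of the deviations from the mean of each condition, not of the levels themselves. Of 18 arrays 10 correlated best with an array of their own number. Whether the numbers pair the samples was thus not settled. With the replicate block 20 members were lower in WT em-KCs. Apart from this and the count for the difference between sets given above, no count of members changed. Over the 19 members called, 481 of 528 values kept direction and call, 40 kept direction only and 7 turned. The cause of these changes was not tested. Cyclic loess moved the median of all genes by at most 0.05 in size. Nr4a3 was the member that the filter on low gene means, under 4.83, left out.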
